A study of Mus musculus with 58 samples.

Results

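The 9 genes described here encode glucose transporters (Slc2a1 and Slc2a3), lactate and other monocarboxylate transporters (Slc16a1, Slc16a3, Slc16a7 and Slc16a8), their partner basigin (Bsg) and the rod-derived cone viability factors (Nxnl1 and Nxnl2). They were picked out by symbol, as a list drawn up with earlier results of these data known, and all 9 were found among the 52459 gene rows of the count table. RNA was sequenced from whole retinas of male mice aged 4 months under 12 h of light and 12 h of dark. Diabetic mice were heterozygous for Ins2Akita, a mutation of the insulin 2 gene that leads to high blood glucose, and control mice were wild-type male littermates on the same C57BL/6 background. Single retinas were taken at zeitgeber time (ZT, hours after lights on) 1, 5, 9, 13, 17 and 21, from animals perfused with buffer. Samples of ZT13, ZT17 and ZT21 were handled under dim red light, so night and the light used for dissection cannot be told apart. The labels call the replicates biological and do not say that each came from a different animal, so p-values measure the spread between these samples. The control group held 30 libraries, with 5, 6, 5, 5, 5 and 4 at the successive time points, and the diabetic group held 28, with 5, 5, 5, 4, 4 and 5. The genotype is a point mutation and Ins2 itself had a median of 0 reads in these retinas (highest 6), so the counts do not check the genotype labels.

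Photoreceptors take up glucose and turn most of it into lactate even when oxygen is present. GLUT1, the product of Slc2a1, is the main glucose transporter of the retina, its pigment epithelium and its vessels, whereas GLUT3, from Slc2a3, is the neuronal form. The monocarboxylate transporters MCT1 (Slc16a1), MCT2 (Slc16a7), MCT3 (Slc16a8) and MCT4 (Slc16a3) carry lactate and pyruvate across cell membranes. MCT3 is the form of the pigment epithelium, and MCT4 is the low-affinity form typical of cells that export lactate. Basigin brings MCT1, MCT3 and MCT4 to the membrane, and its photoreceptor isoform is the receptor through which the short Nxnl1 product, RdCVF, promotes glucose entry into cones by way of GLUT1. Nxnl1 and Nxnl2 each give a short secreted factor and a long thioredoxin-like form by intron retention, and the isoforms were not separated in these counts per gene.

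The libraries held between 7773117 and 22147398 counted reads (median 15406440). Rod markers (8 genes) summed to a median of 649300 normalized counts in control and 616100 in diabetic libraries and were all detected, while 3 of 5 red blood cell markers had a median of 0. Lens markers (9 genes) stayed at or under 1079 normalized counts in 55 libraries and lay between 30240 and 45600 in 3 control libraries (ZT1 replicate 6, ZT17 replicate 5 and ZT21 replicate 2). Lens markers were lower in diabetic retinas over all time points (7 of 9) and higher at ZT17 than at ZT5 in control retinas (9 of 9). Of all genes, 1.45% were called lower in diabetic retinas and 8.16% higher at ZT17 in control retinas. Replicate 5 was the only lens-bearing control library at ZT17. The part of the lens-bearing libraries in these differences was not tested. Without those 3 libraries the same numbers of members were called as with them in every comparison below that used them except genotype at ZT17. All 3 are control libraries, so the rhythm test in diabetic retinas did not use them. Markers of the pigment epithelium (12 genes) varied widely, from 496.1 to 5709 normalized counts per library, which bears on Slc16a8.

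Start regions of 5 genes are shown first, so that the letters near the start of genes with a night peak can be set beside those of genes without one. Each line gives 200 bases that end 6 bases before the transcription start of RefSeq (GRCm38.p6), 5′ to 3′ on the strand of the gene. Promoters were found for 6 of the 9 genes. Capitals mark matches, on either strand, to 4 short motifs. CACGTG is the E-box bound by clock factors. ACGTG is the core that hypoxia-inducible factors bind and lies within every E-box of that kind. TAATCC is bound by the photoreceptor factor Crx. GATTA overlaps the reverse complement of that Crx motif.
Slc2a1 (chr4:119108540-119108739, plus strand): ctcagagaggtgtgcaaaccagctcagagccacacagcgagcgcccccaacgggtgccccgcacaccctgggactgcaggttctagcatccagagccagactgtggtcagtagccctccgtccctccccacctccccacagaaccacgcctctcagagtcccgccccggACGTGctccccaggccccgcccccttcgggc
Slc16a3 (chr11:120948862-120949061, plus strand): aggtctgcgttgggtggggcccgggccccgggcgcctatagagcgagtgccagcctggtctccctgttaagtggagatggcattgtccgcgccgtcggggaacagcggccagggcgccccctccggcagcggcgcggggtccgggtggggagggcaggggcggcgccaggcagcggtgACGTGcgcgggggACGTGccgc
Slc16a1 (chr3:104638459-104638658, plus strand): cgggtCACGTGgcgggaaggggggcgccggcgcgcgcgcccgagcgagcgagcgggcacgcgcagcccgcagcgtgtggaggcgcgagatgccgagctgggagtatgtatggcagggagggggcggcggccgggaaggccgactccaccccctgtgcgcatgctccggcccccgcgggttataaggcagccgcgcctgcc
Nxnl2 (chr13:51170820-51171019, plus strand): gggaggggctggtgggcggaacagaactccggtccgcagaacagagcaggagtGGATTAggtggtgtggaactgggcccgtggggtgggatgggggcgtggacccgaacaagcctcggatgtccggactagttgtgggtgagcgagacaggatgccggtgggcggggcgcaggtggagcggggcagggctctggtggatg
Nxnl1 (chr8:71566655-71566854, minus strand): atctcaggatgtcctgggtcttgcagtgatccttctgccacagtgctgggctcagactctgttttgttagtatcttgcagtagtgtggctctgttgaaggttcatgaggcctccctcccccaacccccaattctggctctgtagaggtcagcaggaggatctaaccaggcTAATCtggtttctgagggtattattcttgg
ACGTG began at position -36 from the start of Slc2a1 and at -27 and -14 from that of Slc16a3, 2 members with night peaks. Slc16a1, which was not called rhythmic, held the full E-box from position -200. TAATCC lay at position -152 in Nxnl2, which peaked at night, and GATTA lay at -35 in Nxnl1, which was not called rhythmic. The promoter of Slc16a8, which also peaked at night, held none of the motifs, and that of Nxnl2 held no ACGTG. Among all 32851 promoters of the table, searched over the 250 bases before the start, 16.6% held ACGTG, 6.0% held the E-box, 6.3% held TAATCC and 19.8% held GATTA. A match is a match of letters and shows no binding.

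Levels were compared between genes as counts divided by DESeq2 size factors (normalized counts) per kb of annotated exon. Basigin was the most abundant member, at 3700 ± 350 normalized counts per kb (SD, n = 58 libraries), and it exceeded Nxnl1, at 1230 ± 128, in 58 of 58 libraries. Slc2a1 (856 ± 148) and Slc16a1 (814 ± 73.1) came next and could not be ordered over the pooled time points, since Slc2a1 was the higher in 30 of 58 libraries. Their order depended on the time point. Mean Slc2a1 in control ran from 2350 normalized counts at ZT5 to 3672 at ZT17 (3506 bases of exon). Mean Slc16a1 was lowest at ZT17, at 3346 (4426 bases). Per kb, Slc2a1 was thus below Slc16a1 at ZT5 and above it at ZT17. Nxnl2 followed at 316 ± 34.7. Slc2a3 (147 ± 13.0) and Slc16a3 (147 ± 48.4) were at the same mean level over the pooled time points, with Slc2a3 the higher in 34 of 58 libraries, but Slc16a3 varied far more between libraries. Slc16a8 (26.4 ± 15.1) and Slc16a7 (21.9 ± 3.85) were the lowest and also could not be ordered over the pooled time points (29 of 58). Here too the order depended on the time point. In diabetic retinas mean Slc16a8 ran from 14.04 normalized counts at ZT5 to 99.4 at ZT21 (2276 bases of exon). Mean Slc16a7 ran only from 239.8 at ZT13 to 263.4 at ZT21 (11839 bases). Per kb, Slc16a8 was thus below Slc16a7 at ZT5 and above it at ZT21.

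**Figure D1:**
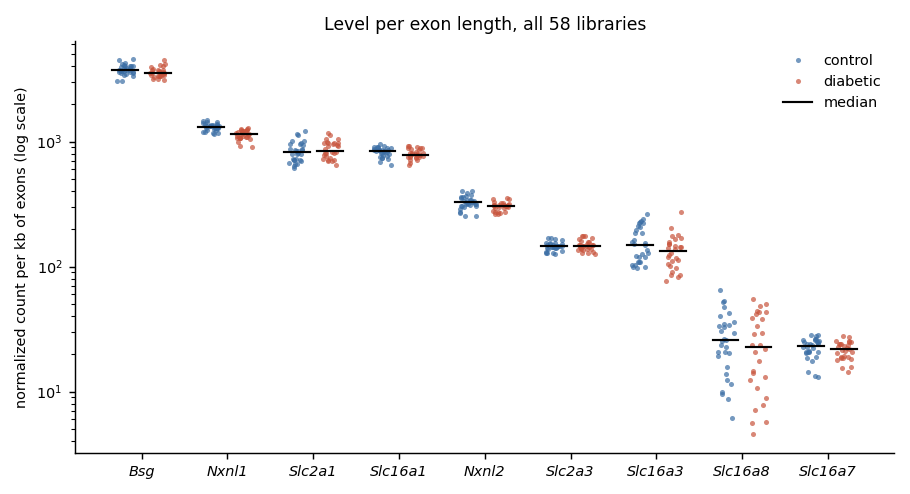
Normalized counts per kb of exon (log axis) of the 9 genes in the 58 libraries, with 1 point per library, control in blue and diabetic in red, and the median of each genotype as a bar. Basigin lies on top, Slc16a8 and Slc16a7 lie lowest, and the points of Slc16a8 and Slc16a3 are the most widely spread.

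Rhythm was called with a rank test of daily shape (empirical JTK; unadjusted p under 0.05 and the highest library more than 25% above the lowest), and the time of the peak (acrophase) and the relative amplitude (distance from mean to peak of the fitted 24 h cosine as a percentage of its mean) came from a cosine fit. In control retinas 6 of the 9 members were called rhythmic, beside 21.8% of all expressed genes, and all 6 also passed with adjusted p, as 8.23% of expressed genes did. In diabetic retinas 5 of the 9 were called, beside 23.9% of expressed genes, and 4 passed with adjusted p, beside 10.3%. All called members peaked in the dark phase, between ZT16.4 and ZT22.0 in control and between ZT15.9 and ZT18.8 in diabetic retinas. Midnight (ZT17) was then compared with midday (ZT5) within each genotype by edgeR's quasi-likelihood test with Benjamini-Hochberg adjustment over 18814 genes. In control retinas 5 members were higher at ZT17 (background, 8.16% of genes higher and 7.43% lower, 15.6% in all) and in diabetic retinas 3 were higher and 1 lower (background, 3.95% higher and 3.65% lower, 7.6% in all).

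**Figure D2:**
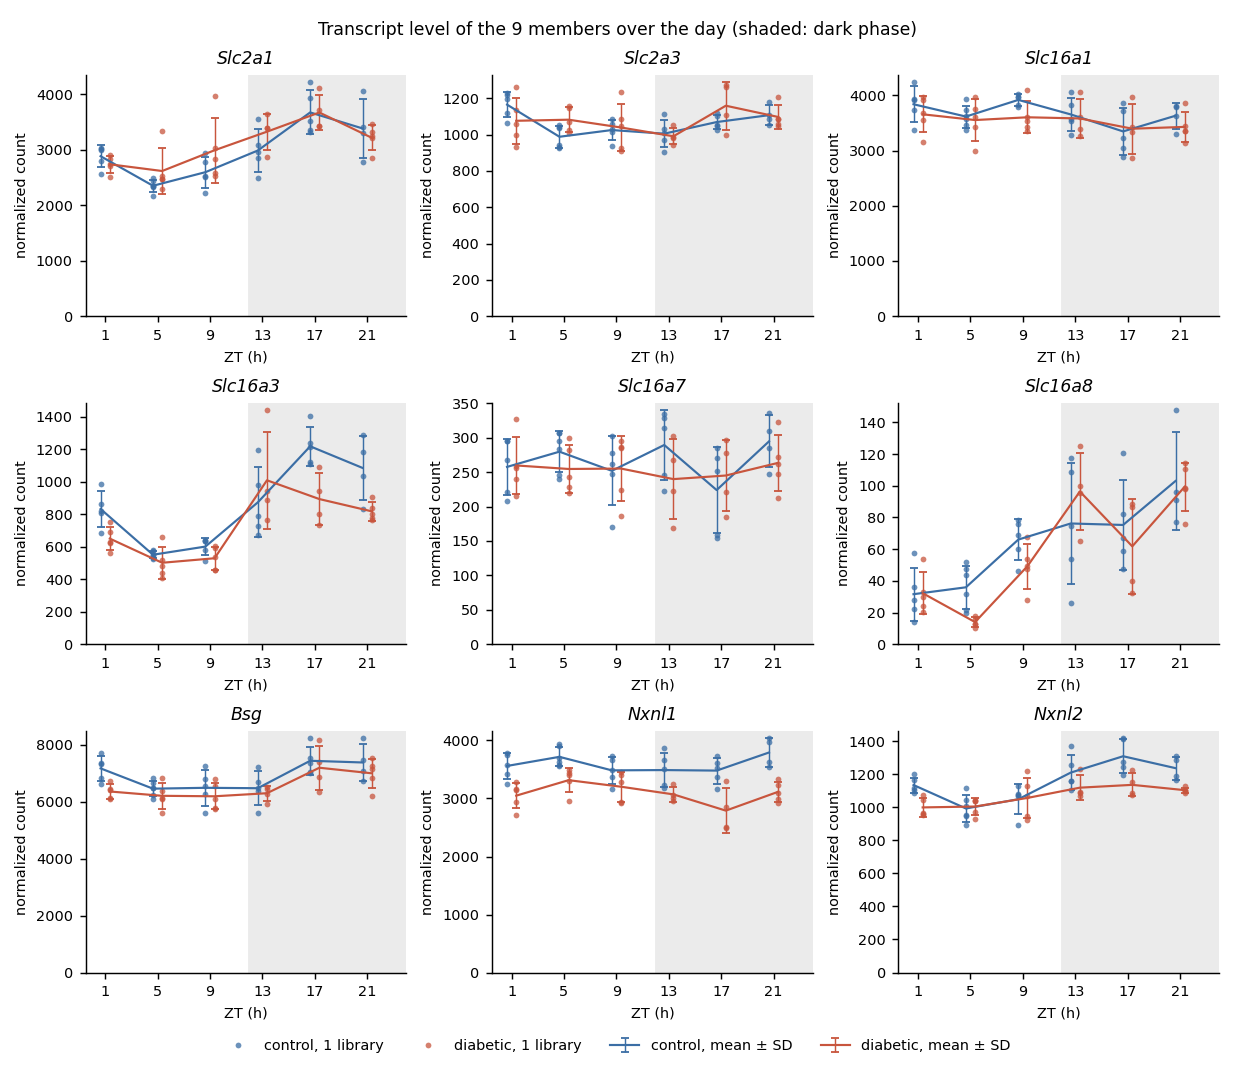
Normalized counts of each gene against zeitgeber time (h), with 1 point per library, lines through the group means and bars for the SD, control in blue, diabetic in red and the dark phase shaded. Slc16a3, Slc2a1 and Nxnl2 are highest in the dark phase, Nxnl1 runs lower in diabetic than in control retinas at every time point, and Slc16a1 and Slc16a7 show no daily shape.

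Slc2a1 (chr4:119108711-119137983, plus strand, 12 merged exons) carried the clear rhythm of the glucose transporters. At ZT5 the 6 control libraries held 2339.7, 2167.0, 2488.6, 2433.1, 2350.6 and 2321.1 normalized counts, and at ZT17 the 5 control libraries held 3938.9, 3352.3, 4228.1, 3323.7 and 3514.9. Every ZT17 library lay above every ZT5 library. The diabetic libraries held 2518.5, 2285.5, 2470.7, 3330.8 and 2474.3 at ZT5 and 3710.7, 4103.4, 3434.1 and 3435.9 at ZT17, again without overlap, although 1 ZT5 library (replicate 4) came close. Such separation was seen for 7.81% of all genes in control and 7.0% in diabetic retinas. The ZT17 to ZT5 difference was 0.65 on the log2 scale in control (SE 0.10, adjusted p = 2.75e-06) and 0.49 in diabetic retinas (SE 0.10, adjusted p = 0.00145).

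The fitted Slc2a1 peak was at ZT18.3 ± 0.51 h (SE) in control and ZT16.1 ± 0.71 h in diabetic retinas, with relative amplitudes of 21.0% ± 2.75 and 16.1% ± 3.07. The rhythm was called in both genotypes (adjusted p = 0.000422 and 0.0015). Over all time points Slc2a1 did not pass the test of genotype, with 2944 ± 549 normalized counts in control (SD, n = 30) and 3063 ± 486 in diabetic retinas (n = 28), a log2 ratio of 0.06 whose 95% interval ran from -0.06 to 0.18. Its exons share 105 bases with an antisense gene, Gm12868, and the strand setting of the counting is not given in the sources used here.

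Slc2a3 was flatter. It was called rhythmic in control retinas, with a relative amplitude of 6.93% ± 1.74 (SE) and a peak at ZT22.0 (adjusted p = 0.0288), and not in diabetic retinas, where the fitted amplitude was 3.9% ± 2.54 and the adjusted p was 0.323. The difference in rhythm between genotypes had an unadjusted p of 0.608 in edgeR, so a loss of rhythm was not shown. The control means by time point ran from 988 ± 60.9 normalized counts at ZT5 (n = 6) to 1165 ± 70.3 at ZT1 (n = 5), a range of 1.18-fold, and the call rested on the fold between single libraries, since the call was lost when that fold was taken between time point means. The genotype log2 ratio was 0.03, with a 95% interval from -0.04 to 0.09.

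Slc16a3, the gene of MCT4, had the largest relative amplitude among the members outside the pigment epithelium gene (chr11:120948480-120960868, plus strand, 9 merged exons). In control retinas the libraries held 530.1, 576.2, 549.0, 579.5, 548.1 and 524.6 normalized counts at ZT5 and 1107.7, 1215.1, 1407.0, 1122.7 and 1235.4 at ZT17. In diabetic retinas they held 438.4, 482.8, 406.3, 661.0 and 520.3 at ZT5 and 943.8, 1091.5, 803.4 and 735.8 at ZT17. The libraries of the time points did not overlap in either genotype. The log2 difference was 1.14 in control (SE 0.13, adjusted p = 5.94e-09) and 0.82 in diabetic retinas (SE 0.14, adjusted p = 8.57e-05).

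The cosine fit put the Slc16a3 peak at ZT18.5 ± 0.38 h (SE) in control and at ZT16.8 ± 0.66 h in diabetic retinas, with relative amplitudes of 39.1% ± 3.84 and 32.7% ± 5.77. The rank test, a permutation test, gave p = 1e-06 in both genotypes, the smallest that 1000000 shuffled series can give. The highest time point mean was at ZT17 in control (1218 ± 120, SD, n = 5) and at ZT13 in diabetic retinas (1009 ± 299, n = 4), where 1 diabetic library reached 1442.7 and the other 3 lay between 762.2 and 941.9.

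At ZT17 every diabetic Slc16a3 library was below every control library, and such separation was seen for 1.95% of genes at that time point. The log2 ratio of diabetic to control was -0.45 at ZT17 (SE 0.14, unadjusted p = 0.00261), -0.41 at ZT21 (SE 0.14, unadjusted p = 0.00521), -0.35 at ZT1 (SE 0.14, unadjusted p = 0.0124), and was smaller at ZT9 (-0.19, SE 0.14) and ZT5 (-0.13, SE 0.13), while at ZT13 it was 0.20 (SE 0.14) with all libraries and -0.015 without diabetic replicate 5. None of these passed after adjustment over 18814 genes (adjusted p = 0.201, 0.68 and 0.705 for ZT17, ZT21 and ZT1). Over all time points the log2 ratio was -0.23 (SE 0.11, adjusted p = 0.303), and it passed when ZT was added to the model as a factor (-0.22, adjusted p = 0.0224) and with each time point and replicate number as a block (-0.24, adjusted p = 0.00191). With that block the ZT17 ratio passed as well (-0.46, adjusted p = 0.00863).

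Slc16a1 (MCT1) was abundant and flat. The time point means lay between 3346 ± 428 and 3917 ± 108 normalized counts in control (SD, n = 5 each) and between 3395 ± 451 (n = 4) and 3656 ± 325 (n = 5) in diabetic retinas, lowest at ZT17 in both. Rhythm was not called by the permutation test (p = 0.095 and 0.402), although in control retinas it was when the ZT5 time point (p = 0.0281) or 1 library (ZT17 replicate 2, p = 0.0438) was left out. The genotype log2 ratio was -0.05, with a 95% interval from -0.12 to 0.02. Slc16a7 (MCT2) was likewise not called rhythmic (p = 0.955 and 0.981), with 265.6 ± 48.9 normalized counts in control (SD, n = 30) and 253.7 ± 41.7 in diabetic retinas (n = 28), a log2 ratio of -0.06 (95% interval -0.19 to 0.07). Its exons share 179 bases with Gm47862 on the opposite strand.

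Slc16a8 (MCT3) was counted with few reads, 8 to 174 per library, and had the widest swings (chr15:79251014-79254761, minus strand). Control means ran from 31.63 ± 16.7 normalized counts at ZT1 (SD, n = 5) to 103 ± 31.0 at ZT21 (n = 4), and diabetic means from 14.04 ± 2.95 at ZT5 (n = 5) to 99.4 ± 15.1 at ZT21 (n = 5). The ZT17 to ZT5 log2 difference was 1.09 in control (SE 0.30, adjusted p = 0.0111) and 2.11 in diabetic retinas (SE 0.37, adjusted p = 0.000115), and the difference between them was 1.02 (SE 0.49, unadjusted p = 0.0422, adjusted p = 1.00). The control call was lost without 1 library, ZT17 replicate 3 (0.85, adjusted p = 0.0905). At ZT5 the 5 diabetic libraries lay between 10.4 and 17.8 and the 6 control libraries between 19.8 and 51.8. They did not overlap, as for 1.11% of genes at ZT5, and the log2 ratio of -1.31 (SE 0.38) had an unadjusted p of 0.00102 and an adjusted p of 0.283.

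The sum of the pigment epithelium markers had medians of 1398 normalized counts in control and 647.7 in diabetic retinas at ZT5, and of 3589 and 3725 at ZT21. In control retinas 7 of the 12 markers were higher at ZT17 than at ZT5 (8.16% of all genes) and none lower, led by Ttr, which encodes transthyretin (log2 difference 1.26, SE 0.30, adjusted p = 0.00288) and Rpe65, the isomerase of the visual cycle (1.31, SE 0.33, adjusted p = 0.00565). In diabetic retinas 8 of 12 were higher (3.95% of all genes) and none lower, led by Rgr, a retinal G protein-coupled receptor (2.05, SE 0.32, adjusted p = 1.66e-05). At ZT5 the markers had a median log2 ratio of diabetic to control of -1.44 (11 of 12 under 0), although none passed. Per 1000 marker counts, the Slc16a8 means of the 12 groups lay between 22.4 ± 5.13 (control ZT9, SD, n = 5) and 27.7 ± 3.16 (control ZT13, n = 5), and those at ZT5 were 25.3 ± 7.89 in control (n = 6) and 22.6 ± 4.97 in diabetic retinas (n = 5). The swings of the Slc16a8 count were much smaller in its ratio to the marker sum. Slc16a8 was called rhythmic in both genotypes (adjusted p = 0.0216 and 0.00369), and in control retinas the call was lost without ZT5 (permutation p = 0.0511). The amount of pigment epithelium left on a retina and the RNA per cell of that epithelium cannot be told apart in these whole-tissue samples, and the same holds for the cell types of the other genes.

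**Figure D3:**
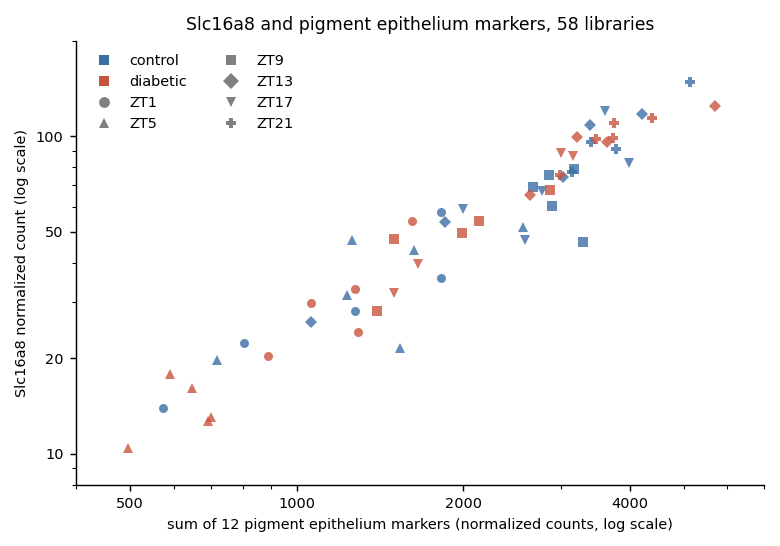
Normalized count of Slc16a8 against the summed normalized counts of 12 pigment epithelium markers (log axes) in 58 libraries, control in blue, diabetic in red, with the symbol for the time point. The libraries fall along 1 band, with the ZT5 diabetic libraries (10.4 to 17.8) at the bottom left and all ZT21 libraries (75.7 to 147.9) in the upper right.

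Basigin was called rhythmic with small amplitudes, 8.57% ± 1.94 (SE) in control and 7.74% ± 1.93 in diabetic retinas, with peaks at ZT20.4 ± 0.83 h and ZT18.8 ± 0.97 h. The call passed adjustment in control (adjusted p = 0.0353) and did not in diabetic retinas (0.0861). Both calls were lost when the fold was taken between time point means, and the diabetic call also without ZT17 or ZT21 (permutation p = 0.0993 and 0.173). The control libraries lay between 6085.8 and 6817.2 normalized counts at ZT5 and between 7014.0 and 8225.7 at ZT17, without overlap. The diabetic libraries lay between 5598.2 and 6842.4 at ZT5 and between 6356.3 and 8170.7 at ZT17, with overlap. The ZT17 to ZT5 log2 differences were close, 0.20 in control (SE 0.07, adjusted p = 0.0274) and 0.21 in diabetic retinas (SE 0.07, adjusted p = 0.0603), on opposite sides of the threshold. The control call was lost without any 1 of 4 libraries (ZT5 replicates 1 and 2, ZT17 replicates 1 and 3; adjusted p up to 0.136), and with a correction for base composition and length the difference was 0.08 (adjusted p = 0.324). It was also lost with no filter on low counts (0.21, adjusted p = 0.0507), and the diabetic difference passed by DESeq2 (0.21, adjusted p = 0.0386). The diabetic mean was below the control mean at 6 of 6 time points, by a log2 ratio of -0.07 over all (SE 0.03, adjusted p = 0.289). That ratio passed with each time point and replicate number as a block (-0.09, adjusted p = 0.0211).

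Nxnl1 passed the test of genotype over all time points (chr8:71560555-71566601, minus strand, 2 merged exons). It fell in diabetic retinas, from 3586 ± 242 normalized counts in control (SD, n = 30) to 3102 ± 267 (n = 28), a log2 ratio of -0.21 (SE 0.03) or a difference of -13.4%, with adjusted p = 4.73e-06 in edgeR. It was the 1 member of 9 that passed, beside 3.11% of genes in either direction and 1.45% of genes lower. With each time point and replicate number as a block, Nxnl1 passed again (-0.21, adjusted p = 6.1e-06) and 3 more members passed as lower, Slc16a3, Nxnl2 and Bsg. That block was added after the data were seen. The call held without each of the 58 libraries in turn, with ratios from -0.22 to -0.20, and without the 3 lens-bearing libraries together (-0.21, adjusted p = 2.07e-05). The diabetic mean was below the control mean at 6 of 6 time points. At ZT21 the 4 control libraries held 3537.2, 3623.0, 3971.7 and 4039.0 and the 5 diabetic libraries 3228.2, 2997.9, 3336.8, 2917.9 and 3099.4, without overlap. At ZT5 they also did not overlap, and separation was seen for 2.23% of genes at ZT21 and 1.11% at ZT5.

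By time point, the largest share of genes called was 0.175% at ZT17 (0.101% lower). It was 0.0213% at ZT5, 0.0106% at ZT1, 0.00532% at ZT9 and 0.0% at both ZT13 and ZT21, and Nxnl1 at ZT17 was the 1 call among the members. The share of genes whose libraries did not overlap was 0.92% at ZT1, 0.771% at ZT9 and 1.08% at ZT13. At ZT17 the 5 control libraries held 3731.7, 3377.9, 3618.4, 3155.6 and 3519.5 normalized counts of Nxnl1 and the 4 diabetic libraries 3306.5, 2858.4, 2494.1 and 2506.9. All but 1 diabetic library lay below all control libraries. The log2 ratio was -0.32 (SE 0.07, adjusted p = 0.0303). At the other time points it ranged from -0.12 at ZT9 (SE 0.07) to -0.28 at ZT21 (SE 0.07), none past the threshold after adjustment (adjusted p from 0.18 to 1.00). The ZT17 call did not hold without any 1 of 5 libraries (control replicates 1, 3 and 5, diabetic replicates 4 and 5; adjusted p up to 0.272), nor without the 3 lens-bearing libraries (-0.31, adjusted p = 0.0659), nor without the filter on low counts (adjusted p = 0.0619).

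Rhythm of Nxnl1 was not called by the permutation test in control (p = 0.239, relative amplitude 3.13% ± 1.71, SE) or diabetic retinas (p = 0.121, 5.85% ± 2.11). In diabetic retinas it was called when ZT1, ZT13 or ZT21 was left out (permutation p = 0.0469, 0.0454 and 0.046). In diabetic retinas it fell from 3316 ± 212 normalized counts at ZT5 (SD, n = 5) to 2791 ± 383 at ZT17 (n = 4), a log2 difference of -0.25 (SE 0.07, adjusted p = 0.0188), a call that was lost without ZT17 replicate 4 (-0.21, adjusted p = 0.0746) or replicate 5 (-0.21, adjusted p = 0.102), or with no filter on low counts (-0.25, adjusted p = 0.0515). In control retinas the difference was -0.09 (SE 0.06, adjusted p = 0.307), and the difference between the differences did not pass (unadjusted p = 0.109).

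All 10 cone markers had log2 ratios under 0 (median -0.12, against 0.002 for all genes tested) in the diabetic to control comparison over all time points, and 3 passed as lower, beside 1.45% of all genes. These were Pde6h (-0.14, SE 0.03, adjusted p = 0.00162), Gnat2 (-0.12, SE 0.03, adjusted p = 0.00726) and Pde6c (-0.12, SE 0.03, adjusted p = 0.04), which encode parts of the cone phosphodiesterase and the cone transducin. All 8 rod markers were also under 0 (median -0.08) and 1 passed, Pde6a, a subunit of the rod phosphodiesterase (-0.09, SE 0.03, adjusted p = 0.0471). Per 1000 cone marker counts Nxnl1 was at 221 ± 13.2 in control (SD, n = 30) and 203 ± 19.6 in diabetic retinas (n = 28), and per 1000 rod marker counts at 5.42 ± 0.40 and 5.02 ± 0.46. At ZT17 the ratio to cone markers was 218 ± 8.68 in control (n = 5) and 180 ± 32.5 in diabetic retinas (n = 4). None of 9 Muller glia and 8 endothelium markers and 1 of 7 tested microglia markers passed between genotypes, Cx3cr1, the receptor of fractalkine (-0.22, SE 0.07, adjusted p = 0.0459), beside 3.11% of all genes. The part of cone or rod content in the Nxnl1 difference was not tested.

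Nxnl2 (chr13:51171022-51175188, plus strand, 2 merged exons) differed from Nxnl1 in having a clear night peak. The control libraries held 889.9, 1009.5, 1043.4, 946.5, 950.9 and 1113.2 normalized counts at ZT5 and 1194.0, 1242.3, 1414.1, 1418.4 and 1273.3 at ZT17. The diabetic libraries held 973.3, 930.3, 1043.7, 1037.3 and 1035.3 at ZT5 and 1153.2, 1227.0, 1086.9 and 1073.9 at ZT17. Neither pair of groups overlapped, but the night libraries of the diabetic group reached less high. The log2 difference was 0.40 in control (SE 0.06, adjusted p = 1.69e-05) and 0.18 in diabetic retinas (SE 0.07, adjusted p = 0.126), and the difference between them was -0.22 (SE 0.10, unadjusted p = 0.025, adjusted p = 1.00).

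The rhythm of Nxnl2 was called in both genotypes (adjusted p = 0.000422 and 0.0368). Its relative amplitude was 13.4% ± 1.81 (SE) in control and 7.04% ± 1.76 in diabetic ones. The peak lay at ZT17.9 ± 0.53 h and ZT15.9 ± 0.92 h, and the diabetic call was lost when the fold was taken between time point means. The ZT5 means were 992.2 ± 79.8 normalized counts in control (SD, n = 6) and 1004 ± 50.1 in diabetic retinas (n = 5), a log2 ratio of 0.02 (95% interval -0.11 to 0.15). The ratios were under 0 at ZT13 (log2 ratio -0.11, SE 0.07), ZT17 (-0.20, SE 0.07), ZT21 (-0.17, SE 0.07) and ZT1 (-0.18, SE 0.07), and 0.01 at ZT9 (SE 0.07), with no overlap of libraries at ZT1 and ZT21. None of these passed at a single time point (adjusted p = 1.00, 0.269, 0.974 and 0.69 for the 4 time points under 0). Over all time points the log2 ratio was -0.11 (SE 0.04, adjusted p = 0.135), and it passed with ZT as an added factor (-0.10, adjusted p = 0.0319) and with the block of time point and number (-0.11, adjusted p = 0.0164). Per 1000 cone marker counts Nxnl2 was at 70.7 ± 9.34 in control (SD, n = 30) and 69.5 ± 6.23 in diabetic retinas (n = 28).

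**Figure D4:**
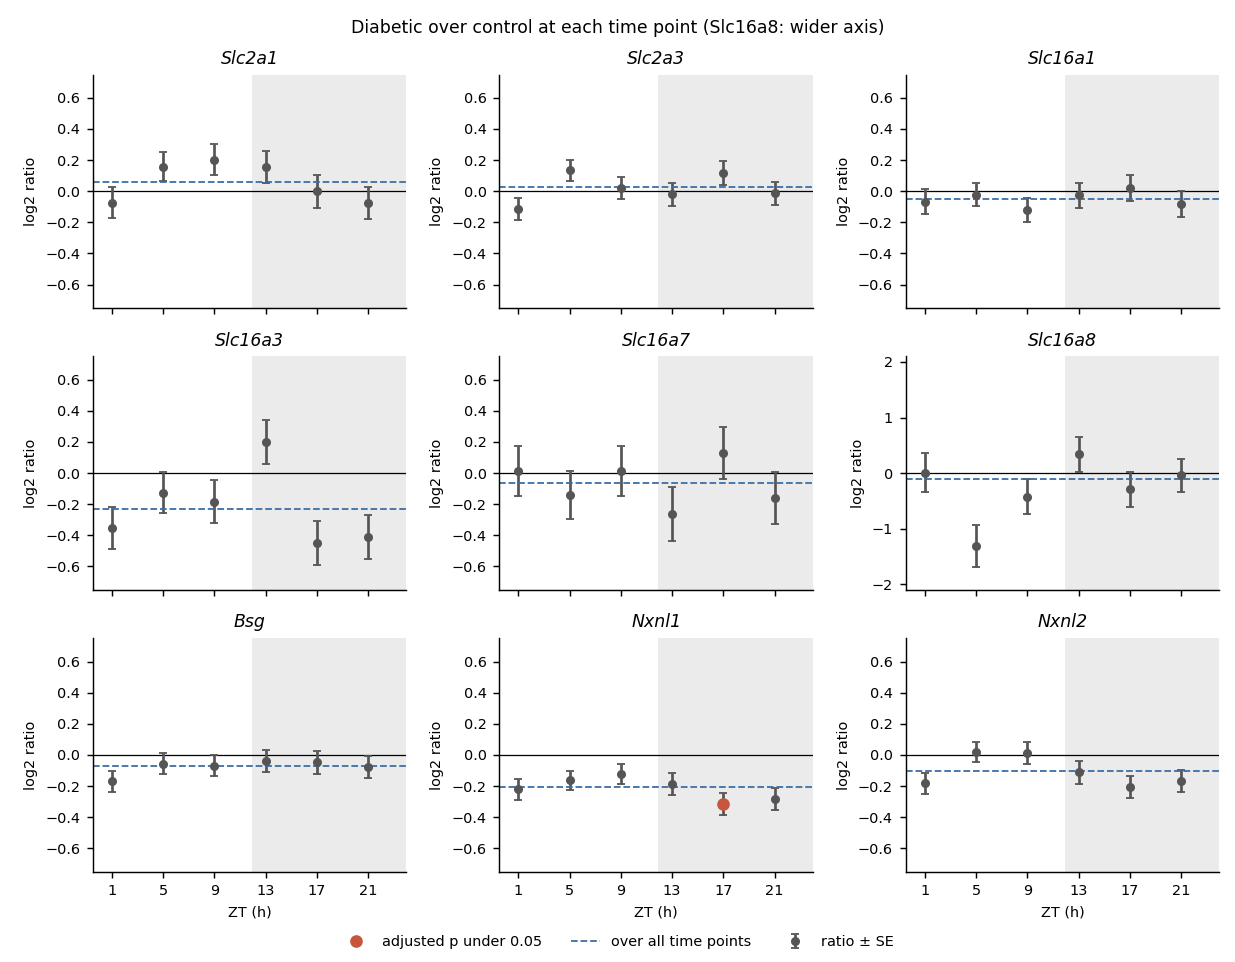
Log2 ratio of diabetic to control (± SE) of each gene at each zeitgeber time (h) from edgeR, with the ratio over all time points as a dashed line, the dark phase shaded and a red point where adjusted p was under 0.05. All 6 ratios of Nxnl1 lie under 0, with the red point at ZT17, those of Slc16a3 lie under 0 at every time point but ZT13 (where the sign rests on 1 diabetic library), and those of Nxnl2 at every time point but ZT5 and ZT9.

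Differences in rhythm between genotypes were tested by interaction terms in edgeR, and the block of time point and replicate number was not fitted for them. No gene of 18814 passed (0 by DESeq2 as well), and 654 genes (3.48%) had an unadjusted p under 0.05. Among the members Nxnl2 (unadjusted p = 0.0116), Slc2a1 (0.0206) and Slc16a3 (0.0328) were under that level, each with adjusted p = 1.00. Their fitted peaks were earlier in diabetic retinas by 2.0, 2.2 and 1.7 h, and all 3 had lower fitted amplitudes there. With 1 library left out, the unadjusted p in edgeR reached up to 0.0273, 0.0739 and 0.0584 for these 3 genes. Slc2a1 and Slc16a3 were thus not under 0.05 without every library. Bsg was earlier by 1.6 h (unadjusted p = 0.486), and Slc16a8 was later by 0.3 h with the larger amplitude in diabetic retinas, 61.9% ± 11.7 against 41.0% ± 11.1 (SE, unadjusted p = 0.177). The study used a different test, from the DODR package, on genes that cycled in either genotype. It listed Slc2a1 (as Glut1) among differentially regulated genes that were several hours earlier in diabetic retinas. That test was not repeated here.

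**Figure D5:**
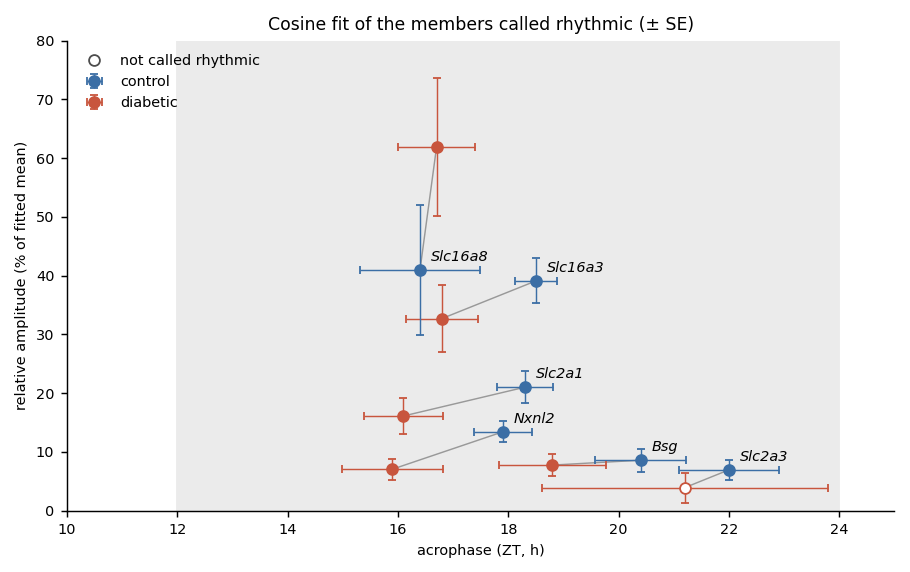
Relative amplitude (% of the fitted mean) against acrophase (ZT, h) of the 6 members called rhythmic in at least 1 genotype, with bars for the SE, control in blue and diabetic in red joined by a line, an open symbol where rhythm was not called and the dark phase shaded. Slc2a1, Slc16a3 and Nxnl2 shift to the left and down from control to diabetic, and Slc16a8 shifts up.

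Among genes for the steps from glucose to lactate, those that passed the test were higher at night in both genotypes. Of 13 such genes, 9 were higher at ZT17 than at ZT5 in control retinas and 6 in diabetic retinas, beside 8.16% and 3.95% of all genes, and none was lower in either. They were led by Hk2, hexokinase 2 (log2 difference 1.04, SE 0.09, adjusted p = 6.7e-12 in control; 1.09, SE 0.10, adjusted p = 3.14e-11 in diabetic retinas). Pfkl, a phosphofructokinase, followed (0.65, SE 0.08 in control and 0.51, SE 0.09 in diabetic retinas), and Ldha, which makes lactate from pyruvate, was also higher (0.49, SE 0.07 and 0.29, SE 0.08). The median log2 difference over the 13 genes was 0.43 in control and 0.28 in the diabetic group, against -0.02 and -0.01 for all genes tested. Rhythm was called for 11 of the 13 genes in control mice and for 10 of 13 in diabetic mice, beside 21.8% and 23.9% of all expressed genes, all with a peak in the dark phase. Between genotypes none of the 13 passed (median log2 ratio -0.06).

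Of 29 other sugar and monocarboxylate transporters listed, 22 had enough counts to be tested. None was called between ZT17 and ZT5 in control retinas (median log2 difference -0.01; 15.6% of all genes), and in diabetic retinas 1 was (7.6% of all genes), Slc16a9, a carnitine efflux transporter (0.75, SE 0.19, adjusted p = 0.0069). Rhythm was called for 3 of 23 expressed in control and 5 of 23 in diabetic retinas, beside 21.8% and 23.9% of all expressed genes. Between genotypes 2 of the 22 were lower in diabetic retinas, beside 1.45% of all genes, and none was higher. They were Slc16a6 (-0.20, SE 0.04, adjusted p = 0.00208), a ketone body transporter, and Slc5a8 (-0.38, SE 0.10, adjusted p = 0.014), a sodium-coupled monocarboxylate transporter. The basigin relatives Emb and Nptn, which also partner monocarboxylate transporters, were not called rhythmic or different in any of these comparisons. Of 10 thioredoxin family genes, the family to which the long Nxnl forms belong, Nxn was higher at ZT17 in control (0.34, SE 0.11, adjusted p = 0.0245) and Txndc12 in diabetic retinas (0.33, SE 0.08, adjusted p = 0.0033), beside 8.16% and 3.95% of all genes. In this family 2 genes were called rhythmic in control mice and 3 in diabetic mice, beside 21.8% and 23.9% of all expressed genes, and none passed between genotypes.

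Likeness to each member was described as the Spearman correlation of log2 levels over the 58 libraries after the mean of each genotype and time point was subtracted, among 12891 genes. The points share library depth and RNA composition, so these are descriptions. Slc16a3 was most like Egln1 (0.80), a prolyl hydroxylase that senses oxygen, then Kdm4b (0.74), a histone demethylase, and Pfkl (0.68). Slc16a8 was most like Ttr and Rgr (0.82 each) and Col8a2 (0.79). Bsg was most like Arf1 (0.87), Tpi1 (0.86), a glycolytic enzyme, and Gnas (0.85). Slc2a1 was most like Chpf, Bag6 and Fbxl16 (0.87 each). Slc2a3 was most like Gpr176 (0.73), Cipc (0.69), a repressor of the clock, and Mageh1 (0.68). Slc16a1 was most like Lrit1 (0.88), a photoreceptor protein, Klhl11 (0.83) and Gtf3c4 (0.81). Among the genes most like Slc16a7 were Csnk1a1 (0.92) and Acvr2a (0.91). Nxnl1 was most like Tmem222 (0.79), Rlbp1 (0.78), a retinoid-binding protein of Muller glia and pigment epithelium, and Retreg2 (0.78). Nxnl2 was most like Xbp1 and Rnf145 (0.64 each) and Plcd3 (0.63). Among the members themselves Bsg went with Slc2a1 (0.69) and Nxnl1 (0.58), Slc16a1 with Slc2a3 (0.57), Slc16a3 with Slc2a1 (0.45), and Slc16a7 against Slc2a1 (-0.60), while Nxnl1 and Nxnl2 were little related (0.18).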

How the data were processed

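RNA was sequenced from whole retinas (total RNA after ribosomal RNA depletion). The deposited values are raw counts per gene, which the authors made with STAR (2.7.4a), GRCm38.p5, Gencode M15 and HTSeq-count (0.11.1). The strand setting is not given in the sources used here. Genotype and zeitgeber time came from the sample titles. No pair of replicates agreed within sampling noise (113 pairs, lowest chi-square per degree of freedom 1.94).

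Counts were tested with edgeR 4.0.16 (R 4.3.3; quasi-likelihood F test, TMM factors, filterByExpr, 18814 genes, adjusted p under 0.05). Genotype over all time points was fitted with 2 groups of all 58 libraries, the single time points and ZT17 against ZT5 with 12 groups, and differential rhythmicity with the interaction of genotype with a 24 h cosine and sine, since the DODR package used in the study was not at hand. The 95% intervals come from the SE by the normal quantile. Rhythm was tested on counts divided by DESeq2 size factors with a re-implemented empirical JTK_CYCLE (6 phases and 5 widths in steps of 4 h, 1000000 shuffled series), for the 19120 genes with a median above 4 normalized counts, and acrophase and amplitude came from a least-squares cosine. Exon lengths and coordinates came from Gencode M21 (GRCm38), matched by symbol, and were not those of the count table's release. Scripts were tested on simulated data with known changes.

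The members and gene lists were chosen with earlier results of these data known. All members are named. Genes of other lists are named where they passed the test (at most the 4 with the smallest p per list and comparison), and for each member the 3 most alike genes with a median above 50 normalized counts (1 of those for Slc16a7 is not reported here). Alternatives were other normalization (RLE), no filter, DESeq2 (1.42.0), a replicate block, a correction for GC content and length (18093 genes), ZT as a factor, other interaction terms, other rhythm tests and filters, and each library and time point left out. A fit without the 3 lens-bearing libraries (sum of 9 lens markers above 10000) and 1 with each ZT and replicate number as a block were added after the data were seen. Depth was 7773117 to 22147398 counts per library. It limits Slc16a8 above all, which had 8 to 174 reads per library.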

Additional observations from a re-analysis of the deposited data

Results flagged for a closer look

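Each member's libraries were searched within each of the 108 sets of 4 to 6 libraries (9 genes, 12 groups) for 1 that stood far from the rest. Chance alone would give such a library in about 1 of 20 sets, and 4 were found. Slc2a1 was at 3330.8 normalized counts in diabetic ZT5 replicate 4, against 2285.5 to 2518.5 in the other libraries of its group. Slc2a3 was at 1208.2 in diabetic ZT21 replicate 1 (others 1047.1 to 1083.7). Nxnl2 was at 890.5 in control ZT9 replicate 3 (others 1069.2 to 1130.0) and at 1230.0 in diabetic ZT13 replicate 5 (others 1069.8 to 1088.9). No genotype difference in rhythm or in the ZT17 to ZT5 change passed adjustment for any member.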

How the results depend on the processing

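Over 108 member results (9 genes, 12 comparisons) and all alternatives other than a left-out library, 881 of 909 calls stayed on their side of the threshold, 13 were lost, 15 were gained and no call changed direction. With a left-out library, 2251 of 2268 stayed. Most of the 108 results were not calls in the report, and only a call could be lost, so these shares do not measure how stable the calls were. The number of members that passed for genotype over all time points was 2 with the correction for GC content and length (with Nxnl2 at adjusted p = 0.0499), 3 with ZT as a factor and 4 with each ZT and replicate number as a block (Nxnl1, Nxnl2, Slc16a3 and Bsg; 1 in the report). At ZT17 it was 0 with no filter and 0 without the lens-bearing libraries, and 2 with the ZT and number block (Nxnl1 and Slc16a3), against 1. Members rhythmic in diabetic retinas were 3 with the fold of time point means, against 5. Nxnl1 was called there by a cosine test in edgeR over all genes (unadjusted; adjusted p = 0.122).

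The number of genes called for genotype over all time points (586) was 387 with no filter, 903 with the GC and length correction, 901 with ZT as a factor and 1169 with the ZT and number block. At ZT1 (2) it was 1 with no filter, 7 with DESeq2, 13 with the GC correction, 4 without the lens-bearing libraries and 0 with the ZT and number block. At ZT5 (4) it was 22 with DESeq2, 8 with the replicate block, 9 with the GC correction and 23 with the ZT and number block. At ZT9 (1) it was 3 with no filter, 4 with DESeq2, 3 with the replicate block, 6 with the GC correction and 0 without the lens-bearing libraries. At ZT13 (0) it was 2 with the GC correction. At ZT17 (33) it was 90 with DESeq2, 62 with the replicate block, 124 with the GC correction and 267 with the ZT and number block. At ZT21 (0) it was 1 with no filter, 8 with DESeq2, 13 with the replicate block, 6 with the GC correction and 20 with the ZT and number block. For differential rhythmicity (0) it was 3 with no filter and 10 with the replicate block, none of them members. Rhythmic genes in control (4172) were 1573 with adjusted p, 2532 with the fold of time point means and 2691 without ZT17, and in diabetic retinas (4565) 1967 with adjusted p and 2710 with the fold of means. The cause of these shifts was not tested.

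Leaving out 1 library gave 466 to 627 genes over all time points, 0 to 4 at ZT1, 2 to 5 at ZT5, 0 to 2 at ZT9, 0 to 1 at ZT13, 3 to 93 at ZT17, 0 to 1 at ZT21, 1385 to 3758 for ZT17 against ZT5 in control, 894 to 1754 in diabetic retinas, 0 to 9 for differential rhythmicity, and 3643 to 5079 and 3974 to 4946 rhythmic genes in control and diabetic retinas. Members called ranged from 0 to 1 at ZT17, 3 to 5 for ZT17 against ZT5 in both genotypes, 6 to 7 rhythmic in control and 5 to 6 in diabetic retinas, and stayed as reported elsewhere (1 over all time points). Bsg passed for ZT17 against ZT5 in diabetic retinas without ZT5 replicate 4 or ZT17 replicate 4, and Slc2a3 was called rhythmic there without ZT9 replicate 3 or ZT17 replicate 4.

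Replicate numbers recur in all groups. Of the 26 same-numbered control and diabetic pairs within a time point, 22 deviated together (correlation over 0.1, range -0.57 to 0.85). These were all pairs at ZT1, ZT5 and ZT13 but not at the other 3 time points. The mean correlation of same-numbered pairs lay between 0.24 (ZT5) and 0.40 (ZT1). For other-numbered pairs it lay between -0.09 (ZT13) and -0.05 (ZT5). The labels do not say what a number stands for. The main fits did not use the numbers as pairs, and the fit with each ZT and replicate number as a block did. The replicate block changed no member call for genotype, ZT17 against ZT5 or differential rhythmicity, and with it the cosine test of Nxnl1 in diabetic retinas had adjusted p = 0.0339. With no filter, 4 members passed for ZT17 against ZT5 in control and 3 in diabetic retinas (Bsg and Nxnl1 lost). The replicate block called 507 genes for genotype over all time points and 4175 and 1616 for ZT17 against ZT5 in control and diabetic retinas.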
